A study of Spirodela polyrhiza with 12 samples.

Results

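The transcript response to high temperature was described in Spirodela polyrhiza, the giant duckweed. This small free-floating aquatic plant has a body reduced to a leaf-like frond with roots. The high-temperature group had 4 leaf libraries and was set against 4 leaf libraries kept at indoor temperature, which served as the controls. A further 4 libraries from a middle temperature entered the same fit. They are used here mainly for the shared estimate of spread, and they also count in the rule for members. The labels give tissue and temperature only. The degrees, the exposure time, the clone or strain and the number of fronds pooled per library are not stated in the labels or files. Members were the genes with an FPKM (fragments relative to transcript length and library size) of at least 1 in at least 4 of the 12 libraries, which were 15209 of the 18099 genes in the deposited table. The other 2890 genes are not described. Of the 15209 members, 241 would not have passed without the high-temperature libraries and 440 would not have passed without the indoor ones. Without the middle-temperature libraries 754 would not have passed. The table names genes by identifier alone, with no symbol or product.

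In plants, heat stress is known to act through heat shock transcription factors, which switch on genes for chaperones such as the small heat shock proteins and the HSP70, HSP90 and HSP100 families. These proteins hold or refold other proteins that lose their shape at raised temperature. Many genes for growth and photosynthesis are known to be turned down at the same time. The series title also names aquaporins, the membrane channels through which water crosses cell membranes. None of these roles could be assigned to an identifier here, and the defining markers of leaf tissue could not be checked for the same reason, so the response is described by its size, level and arrangement. In bulk tissue, fewer cells of a type and less RNA per cell cannot be told apart.

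The total estimated count was 25575920 to 32711880 per high-temperature library and 23655239 to 28826999 per indoor library. Most genes took a smaller share of the high-temperature libraries. The median FPKM of the 15209 genes was 10.4, 9.71, 9.15 and 8.06 in high-temperature replicates 1 to 4, against 15.6, 15.4, 14.7 and 15.9 in indoor replicates 1 to 4. Every high-temperature library lay below every indoor library. Genes at an FPKM of at least 100 numbered 1142 ± 41.9 at high and 1643 ± 23.0 at indoor temperature (SD, n = 4 each). At the top of the range the order was the other way, with 103.25 ± 1.89 genes at an FPKM of at least 1000 at high temperature and 84.5 ± 7.19 at indoor temperature. These 3 measures, and the number of genes at an FPKM of at least 10 (7345 ± 396 at high, 9214 ± 149 at indoor temperature), separated the groups completely (two-sided exact permutation test, p = 0.0286 each, the smallest that 4 against 4 libraries can give, adjusted p = 0.0429 after Benjamini-Hochberg over 6 measures). For genes at an FPKM of at least 1, with 13865 ± 412 at high and 14455 ± 221 at indoor temperature, a difference was not detected (exact permutation test, p = 0.0571, adjusted p = 0.0686). The numbers of tested genes with a count of 0 were 134.75 ± 52.6 at high and 122.25 ± 25.6 at indoor temperature, and their difference was likewise not detected (exact permutation test, p = 0.714, adjusted p = 0.714).

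**Figure D1:**
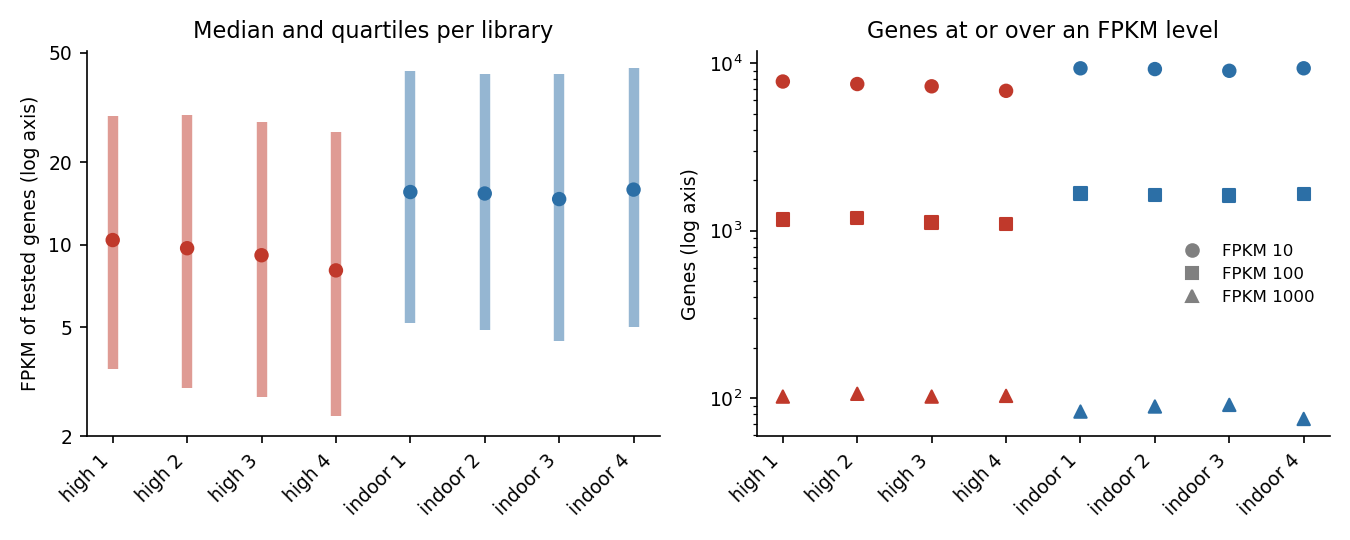
Left, median FPKM (points) and quartiles (bars) of the 15209 tested genes in each of the 8 libraries, on a log axis; right, number of genes at or above an FPKM of 10, 100 and 1000 in each library, on a log axis. High-temperature libraries (red) have medians of 8.06 to 10.4 and indoor libraries (blue) 14.7 to 15.9, while genes at or above 1000 are more numerous at high temperature.

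FPKM values are relative to the library's total, so a gene set that takes more of the total leaves a smaller share for all others. TMM scaling sets the libraries on a scale where most genes do not change, and its factors were 0.630 to 0.767 at high and 1.09 to 1.20 at indoor temperature. With FPKM divided by these factors the median became 13.2 ± 0.32 at high and 13.5 ± 0.25 at indoor temperature, and no difference was detected (exact permutation test, two-sided, n = 4 each, p = 0.2, adjusted p = 0.274). The scaling itself brings typical genes to a common level, so that test cannot show whether the typical gene changed. On that scale the genes at or above 100 numbered 1648 ± 82.0 at high and 1427 ± 60.8 at indoor temperature, so the direction of that measure turned with the scaling (exact permutation test, p = 0.0286, adjusted p = 0.0857). Genes at or above 1000 numbered 148 ± 16.8 at high and 68.5 ± 7.59 at indoor temperature, with the same p and adjusted p. Which scale is nearer to transcripts per cell cannot be told from these files.

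Between high and indoor temperature 4992 genes differed, 32.8% of the 15209 tested, at an adjusted p under 0.05 in edgeR's quasi-likelihood test with TMM scaling. Of these, 2596 genes (17.1%) were higher and 2396 (15.8%) lower at high than at indoor temperature. Their sizes depended on the scaling as well. With TMM the genes called higher had a median log2 fold change of 1.22, with quartiles at 0.79 and 2.11, and the genes called lower a median of -0.96, with quartiles at -1.35 and -0.70, beside a median of -0.04 for the whole of the genes tested. At least 2-fold rises were called for 1610 genes (10.6%) and at least 2-fold falls for 1127 genes (7.41%). At least 4-fold rises were called for 698 genes (4.59%) and at least 4-fold falls for 227 genes (1.49%). When libraries were scaled by their totals alone, that overall median moved to -0.73, and the split became 1170 genes higher (7.69%) and 8699 lower (57.2%). The balance of large changes then turned, with rises of 4-fold or more in 407 genes (2.68%) and such falls in 783 (5.15%).

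The calls under the 2 scalings were nested. All 1170 genes called higher with library totals were among the 2596 called higher with TMM, and all 2396 genes called lower with TMM were among the 8699 called lower with library totals. A core of 1170 higher and 2396 lower genes (15.8%) was thus called in the same direction both ways. The 1170 genes had a median log2 fold change of 2.20 with TMM and 1.52 with library totals, and the 2396 genes a median of -0.96 with TMM and -1.65 with library totals. A further 1414 genes were higher with TMM, at a median log2 fold change of 0.82, and not called with library totals, where the median was 0.13. Another 6291 genes, 41.4% of those tested, were lower with library totals, at a median of -0.90, and not called with TMM, where the median was -0.21. Only 12 genes were higher with TMM and lower with library totals, all with a TMM log2 fold change of 0.38 or less. The remaining 3926 genes were called under neither scaling.

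**Figure D2:**
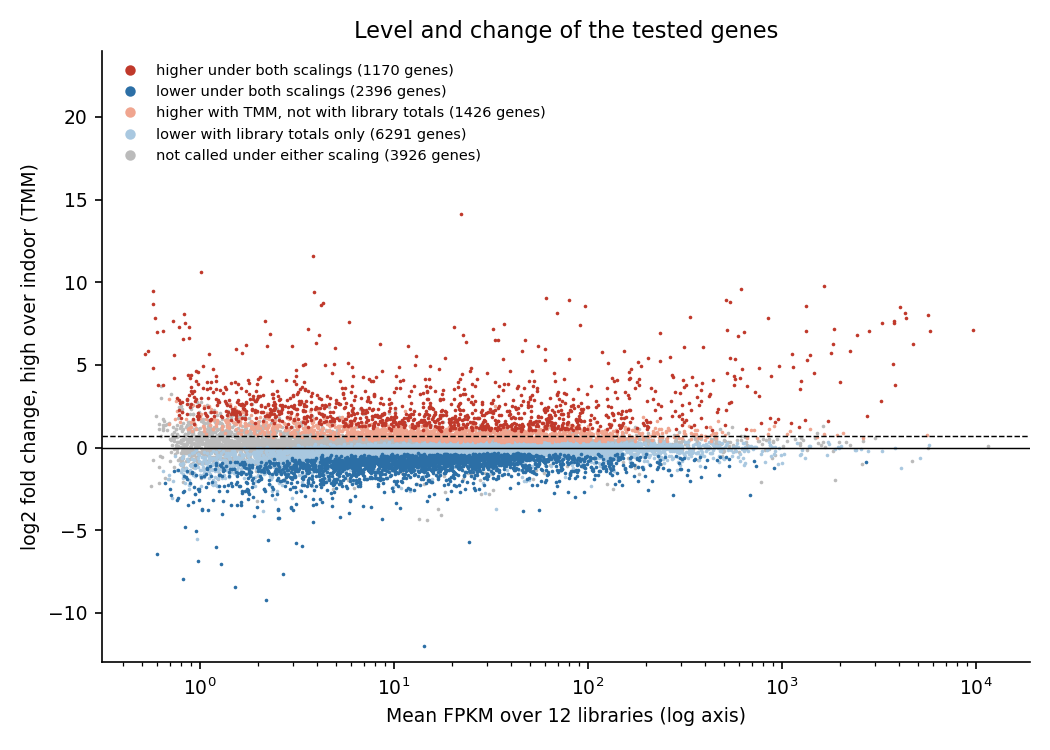
Log2 fold change of high over indoor temperature (TMM scaling) against mean FPKM over the 12 libraries on a log axis, 1 point for each of the 15209 genes, coloured by the calls with TMM and with library totals. The solid line marks no change with TMM and the dashed line the place of no change with library totals, so the 1170 genes higher under both scalings lie above both lines and the 2396 lower genes below both.

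The 2 genes with the smallest p in each direction were taken to show the response library by library. They came from 730 higher and 848 lower genes with no count of 0 in the 8 libraries, at least a 2-fold change and no overlap between the groups, so their lack of overlap was a condition of the choice. Spipo4G0115200.v2 had an FPKM of 361, 196, 331 and 257 in the high-temperature libraries, against 0.738, 1.27, 1.24 and 1.47 in the indoor libraries. Its indoor counts of 19 to 42 rest on few fragments, and its high-temperature counts were 5461 to 12750. The log2 fold change was 8.58 ± 0.31 (SE; edgeR, Benjamini-Hochberg adjusted p = 2.34e-09). Spipo22G0018900.v2 had an FPKM of 315, 213, 354 and 242 in the high-temperature libraries, against 7.58, 8.64, 7.44 and 8.56 in the indoor libraries. Its indoor values were closely grouped, and every high-temperature value was well above them, with a log2 fold change of 5.80 ± 0.23 (edgeR, Benjamini-Hochberg adjusted p = 3.33e-09).

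Of the genes that fell, Spipo28G0015100.v2 had an FPKM of 0.905, 1.29, 0.296 and 0.506 in the high-temperature libraries, against 64.2, 59.5, 46.3 and 81.6 in the indoor libraries. It was near the detection limit at high temperature, with counts of 6 to 25, and its log2 fold change was -5.68 ± 0.38 (SE; edgeR, Benjamini-Hochberg adjusted p = 1.21e-07). Spipo0G0008600.v2 had an FPKM of 5.17, 3.93, 3.32 and 3.83 in the high-temperature libraries, against 25.02, 23.4, 27.8 and 33.0 in the indoor libraries. Both groups were tight, and the log2 fold change was -2.06 ± 0.17 (edgeR, Benjamini-Hochberg adjusted p = 5.87e-07). With library totals the log2 fold changes of the 4 genes were 7.89, 5.11, -6.36 and -2.75 in the order described, each with the same direction.

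The same 4 genes differed in how far they stood from the middle-temperature libraries. Spipo4G0115200.v2 averaged 286 ± 74.4 FPKM at high and 3.76 ± 0.73 FPKM at middle temperature (SD, n = 4 each), a log2 fold change of 7.06 ± 0.28 (SE; edgeR, Benjamini-Hochberg adjusted p = 5.56e-09). Between middle and indoor temperature its log2 fold change was 1.52 ± 0.25, the smaller part of the whole. Spipo22G0018900.v2 averaged 281 ± 64.8 FPKM at high and 66.7 ± 14.3 FPKM at middle temperature, a log2 fold change of 2.89 ± 0.20 between them. Between middle and indoor temperature its log2 fold change was 2.91 ± 0.20, so each step was of about the same size. Spipo28G0015100.v2 had log2 fold changes of -2.85 ± 0.35 between high and middle and -2.83 ± 0.32 between middle and indoor temperature. For Spipo0G0008600.v2 they were -1.07 ± 0.16 and -0.99 ± 0.16. All 8 of these differences passed the adjusted p threshold in edgeR. In the high against middle comparison 15.9% of all genes were called higher and 14.5% lower, and between middle and indoor temperature 19.2% and 17.7%.

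**Figure D3:**
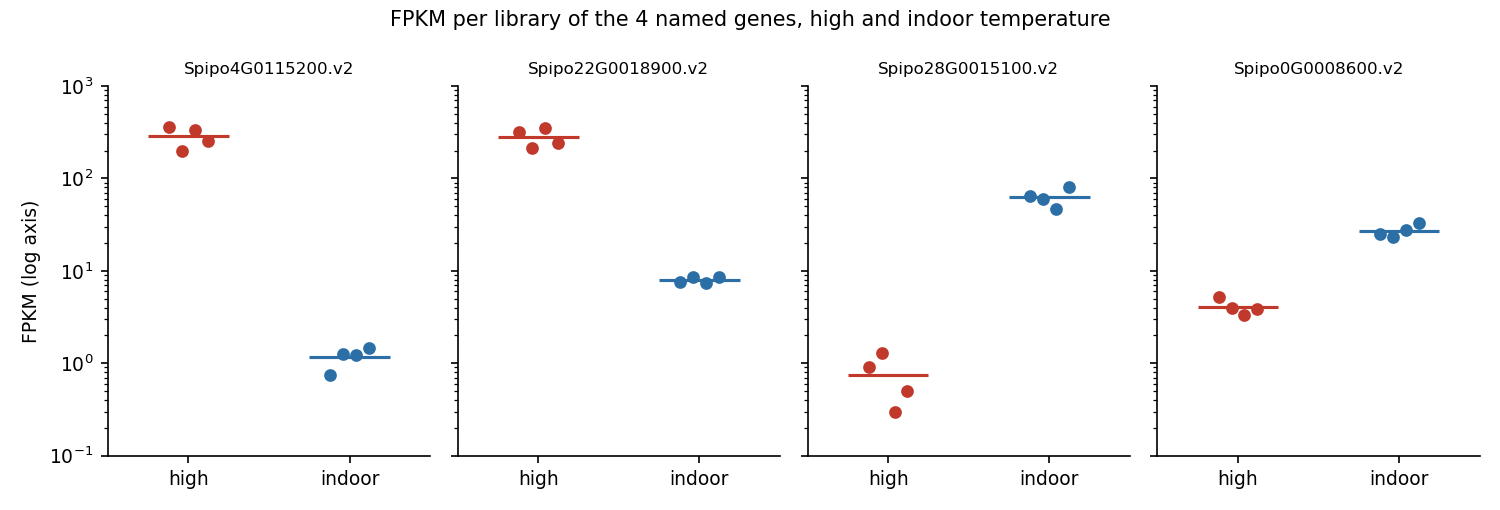
FPKM on a log axis of the 4 named genes in the 4 high-temperature (red, left) and 4 indoor (blue, right) libraries, with the mean as a line. Spipo4G0115200.v2 and Spipo22G0018900.v2 lie at 196 to 361 FPKM at high temperature and at 0.738 to 8.64 at indoor temperature, and the other 2 genes lie lower at high temperature.

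The genes called higher held a large share of the estimated counts at high temperature. Their share of the counts was 51.0%, 46.1%, 55.1% and 53.5% in the high-temperature libraries, against 12.9%, 13.6%, 13.6% and 13.1% in the indoor libraries. The genes called lower held 5.18%, 5.34%, 4.60% and 4.42% of the counts in the high-temperature libraries and 14.8%, 15.1%, 14.9% and 15.8% in the indoor libraries. Since the genes were chosen by the same contrast, these shares describe the response and were not tested. The 1170 genes higher under both scalings alone held 42.3% ± 4.27 of the counts at high and 4.80% ± 0.30 at indoor temperature (SD, n = 4 each). At middle temperature they held 12.2% ± 1.41.

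The share was uneven within the 2596 genes. By mean share at high temperature, the 23 most abundant of them held 50% of what all 2596 held. The 100 most abundant held 37.5% ± 3.86 of all counts at high temperature and 4.37% ± 0.31 at indoor temperature. The 500 most abundant held 46.2% ± 3.98 at high and 9.28% ± 0.40 at indoor temperature. The remaining 2096 genes, most of those called higher, held 5.20% ± 0.34 at high and 4.01% ± 0.090 at indoor temperature.

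**Figure D4:**
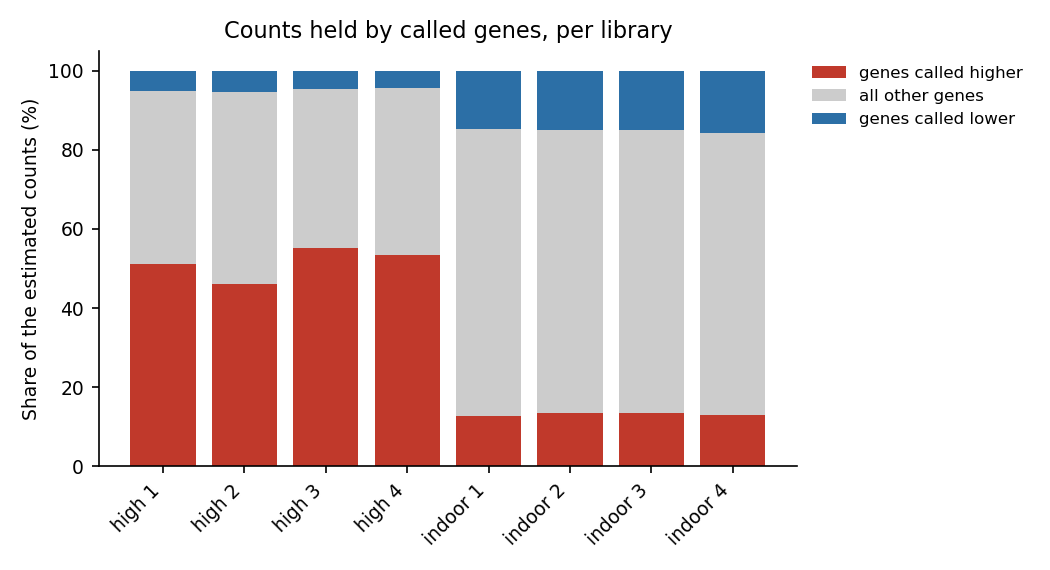
Share of the estimated counts in percent, per library, held by the 2596 genes called higher (red), all other genes (grey) and the 2396 genes called lower (blue). The genes called higher hold 46.1% to 55.1% at high temperature and 12.9% to 13.6% at indoor temperature.

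The ranking of abundant transcripts, which does not depend on the scaling between libraries, differed between the groups. Of the 100 genes with the highest mean FPKM at high temperature, 49 were also among the 100 highest at indoor temperature. Of the 51 that were not, 51 were called higher with TMM and 49 with library totals, beside 17.1% and 7.69% of all genes tested. These 51 were picked by their level in the same libraries, so their calls follow largely from the choice. Calls for the 51 indoor leaders that left the list did depend on the scaling. With TMM 4 were lower, 2 higher and 45 not called, and with library totals 35 were lower, 0 higher and 16 not called, beside 15.8% and 57.2% of all genes tested called lower with the same scalings. Among the 1000 most abundant genes the lists shared 739, or 73.9% of each. Single libraries showed the same: pairs of high-temperature libraries shared 77 to 88 of their 100 most abundant genes, pairs of indoor libraries 66 to 81, and a high with an indoor library 37 to 54. The ranges within and between the groups did not meet.

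Calls were spread unevenly over expression levels. Among the 1486 genes with a mean FPKM of 100 or more over the 12 libraries, 24.5% were called higher and 8.61% lower. Among the 7708 genes at 10 to 100 FPKM these shares were 17.3% and 16.9%, and among the 5622 genes at 1 to 10 FPKM they were 14.6% and 16.6%. The 393 genes under 1 FPKM had 19.1% called higher and 7.89% lower. The scarcity of falls among the most abundant genes held with TMM only, since with library totals 56.1% of the genes at 100 or more were lower, 66.2% at 10 to 100, 47.7% at 1 to 10 and 21.6% under 1. Higher under both scalings were 13.1% of the genes at 100 or more, 6.46% at 10 to 100, 7.47% at 1 to 10 and 14.8% under 1. The standard error of the log2 fold change had a median of 0.22 in the highest class, 0.19 at 10 to 100, 0.34 at 1 to 10 and 0.70 under 1, so small changes were least detectable in weakly expressed genes. The mean over all libraries includes the high-temperature level itself, which moves genes with large rises into the upper classes. A gene under 1 FPKM can pass the member rule through the libraries of 1 group alone. The 241 genes that passed only with the high-temperature libraries held 128 called higher and 0 lower. The 440 that passed only with the indoor libraries held 1 called higher and 91 lower. The shares in the lowest class therefore depend in part on the filter and were not tested.

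A part of the genes that rose started near the detection limit. Of the 1170 genes higher under both scalings, 258 (22.1%) had a mean FPKM under 1 at indoor temperature, against 738 (4.85%) of all genes tested. Both the calls and the filter favour such genes, since the 241 genes that passed only with the high-temperature libraries held 128 called higher and 0 called lower. These shares are therefore a description without a test. For the 1170 genes the median FPKM was 20.8 at high and 6.72 at indoor temperature. The genes that fell came from ordinary levels, with a median FPKM of 5.79 at high and 18.2 at indoor temperature. Of these 2396 genes, 269 (11.2%) had a mean under 1 at high temperature, against 1240 (8.15%) of all genes tested. Calls and filter act on falls too, since the 440 genes that passed only with the indoor libraries held 91 called lower and 1 called higher. The shares for falls are likewise a description without a test. Complete loss or gain was rare. Only 9 of the tested genes were at 0 counts throughout the high-temperature group, and 4 of these stood above a floor of 12 counts in every indoor library. Against that floor in each high-temperature library 2 of the 4 passed a bound of 2-fold, and the largest was at least 30.4-fold lower. The median bound was 1.97-fold, and the smallest, 0.971-fold, does not show a fall. In the opposite direction 16 genes were at 0 counts throughout the indoor group, and 10 of these stood above the floor in every high-temperature library. All 10 were at least 2-fold higher, with a median bound of at least 5.70-fold and the largest at least 184-fold higher. All 14 genes above the floor were called by edgeR's quasi-likelihood test. They were picked by their counts in the same libraries, so these calls follow largely from the choice. The floor stands for 3 fragments of 4 counts and covers counting error only.

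Genes called lower had longer transcripts at the median. Within a library the deposited count divided by the FPKM is proportional to transcript length, and this ratio, relative to the library's median gene, was obtained for 14856 of the 15209 genes. Its median was 0.97 for the genes called higher, 1.15 for the genes called lower and 0.96 for all genes tested. The genes were divided by length into 5 classes of equal number. In the shortest class 9.83% were called lower, and this share was 13.5%, 16.7%, 19.2% and 21.2% in the following classes. The share called higher showed no such order, at 18.0%, 16.5%, 17.0%, 16.6% and 18.0% from the shortest to the longest class. With library totals 49.2% of the shortest and 63.7% of the longest class were called lower. Length also sets the counts behind a value. The median over genes of the mean count was 289 in the shortest and 1014 in the longest class, and the median standard error was 0.27 and 0.20. The median log2 fold change moved less, between 0.02 in the shortest and -0.08 in the longest class. Among genes at 10 to 100 FPKM alone, 10.8% of the shortest and 21.8% of the longest class were called lower. The part of precision in these shares was not tested.

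Genes with neighbouring identifiers shared a call more often than all genes tested did. Identifiers run in numbered series, and 12847 of the 15176 pairs of next identifiers compared were numbered 100 apart, the smallest step in the table. The files give no genome positions, so the order is that of the identifiers. Of the genes called higher that had a next identifier, 28.4% were followed by a gene also called higher, beside 17.1% of all genes tested, and 10.3% by a gene called lower, beside 15.8%. Of the genes called lower, 22.5% were followed by another called lower. For genes higher under both scalings the share was 23.5%, beside 7.69% of all genes. The contrast was wider for large rises. After a gene at least 4-fold higher, 20.8% of the next genes were at least 4-fold higher, beside 4.59% of all genes, and after a gene at least 16-fold higher 21.3% were at least 16-fold higher, beside 1.18%. After a gene at least 4-fold lower, 10.7% of the next genes were at least 4-fold lower, beside 1.49%.

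Over all 15176 pairs, the log2 fold change of a gene and that of the next had a Pearson's r of 0.264 and Spearman's rho 0.189. These are descriptions across genes of the same libraries, and genes are not independent replicates. Runs of at least 3 successive tested identifiers called higher numbered 158 and held 571 genes, and the longest had 9. Runs of at least 3 called lower numbered 92 and held 322 genes, with the longest at 7. Among genes at least 4-fold higher there were 26 such runs with 91 genes, the longest of 8. Near-identical copies and overlapping genes can share reads in the counting, and their part in these runs was not tested.

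**Figure D5:**
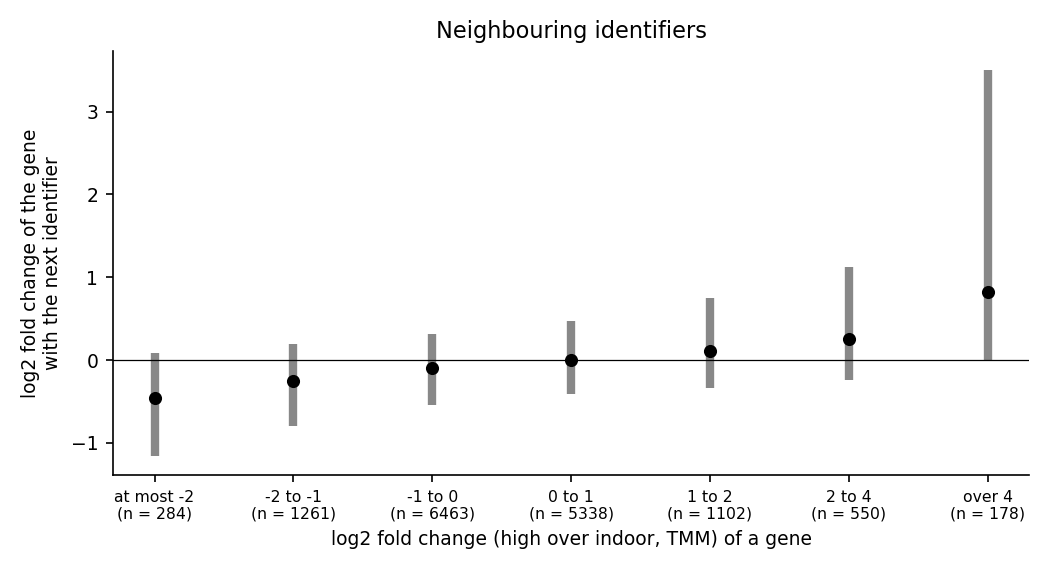
Median (points) and quartiles (bars) of the log2 fold change of the gene with the next identifier, by the log2 fold change of the gene before it (high over indoor temperature, TMM scaling). The median of the next gene is -0.45 after genes at -2 or below and 0.82 after genes above 4, and the upper quartile there is 3.50.

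The response was of like size in the 4 high-temperature libraries. For the 1170 genes higher under both scalings, the median difference from the indoor mean on the log2(CPM + 1) scale, CPM being counts scaled to library size with TMM, was 1.81, 1.65, 1.86 and 1.79 in replicates 1 to 4. For the 2396 lower genes it was -0.81, -0.84, -0.87 and -0.94. Of the 2596 genes called higher, 2245 (86.5%) had TMM-scaled counts in every high-temperature library above every indoor library, beside 16.1% of all genes tested. Of the 2396 genes called lower, 1893 (79.0%) lay below in the same sense, beside 14.2%. The genes were called on these same libraries, so these medians and counts describe the calls and give no separate support for them. Gene by gene, the spread between replicates was close in the 2 groups. The median SD of log2(FPKM + 1) was 0.298 at high and 0.270 at indoor temperature, and 54.4% of genes had the larger SD at high temperature. Library measures differed more. The share of counts in genes called higher had an SD of 3.92 at high and 0.37 at indoor temperature, and the genes at or above 1000 FPKM 1.89 and 7.19. The common biological coefficient of variation, edgeR's measure of the spread between libraries beyond counting error, was 31.4% at high and 33.2% at indoor temperature.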

How the data were processed

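RNA was sequenced from 12 leaf libraries with poly(A) selection and adapters carrying unique molecular identifiers, per the labels' protocols. Tools listed in the submitters' processing notes, with no role or order, are StringTie 1.3.4d, HISAT2 2.0.4, cutadapt 1.9, edgeR, DESeq2 and UMI-tools. Genome build, annotation and strand setting: not given in the sources used here. The deposited table holds, per the file headers, an FPKM and a count column per library. The deposited counts are estimated counts that are already whole: within all 18099 genes they followed the FPKM after rounding up, within a tolerance of 0.05%. A count of 4 was found 1807 times and a count of 1 470 times, so a fragment may add several counts. The floor of 12 counts per library follows from this.

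Counts were tested with edgeR 4.0.16 in R 4.3.3 (TMM, quasi-likelihood F-test, robust, all 12 libraries, 1 term per group), with Benjamini-Hochberg adjustment over 15209 genes, as planned for whole estimated counts. A standard error is the fold change on the log2 scale over the root of F. Alternatives used limma 3.58.1 and DESeq2 1.42.0, and library measures were tested with scipy 1.17.1. The fit was tested on simulated data with few changed genes, balanced between rises and falls, and no shift in composition. That simulation cannot bear on the choice of scaling, and nothing is drawn from it. Nothing says that replicates came from separate cultures, so the spread behind the p-values may be technical. No replicate pair had identical counts. The difference between libraries, as chi-square per degree of freedom on counts divided by 4, was 18.7 for indoor replicates 1 and 2 and 22.5 for 3 and 4. Other indoor pairs had 39.5 to 48.9, and high-temperature pairs 20.2 to 32.4. The indoor libraries were thus unevenly related, while the tests treat them as equal replicates. Named genes were those called, at least 2-fold changed, without a count of 0 in the 8 libraries, without overlap, and with a mean FPKM reaching 5 in the higher group, with the 2 smallest p-values per direction. The member rule, lists and tests were chosen with earlier results of these data known. Planned gene lists, aquaporins among them, need gene names and were not used here.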

Additional observations from a re-analysis of the deposited data

How the results depend on the processing

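Calls depended on the correction for composition. Over 20 alternatives, 85 of 100 counts of calls moved by less than 1.5 times. The other 15 came from settings without that correction. Library totals gave 9869 calls, 1170 higher, 8699 lower, and 837 rises and 4763 falls of 2-fold or more. limma on log2(FPKM + 1) gave 9950, 1178, 8772, 694 and 3793 in the same order, and limma on log2(FPKM + 0.1) gave 10019, 1198, 8821, 871 and 4794. Under 7 alternatives with such a correction, 2090 of the 2596 higher and 1808 of the 2396 lower genes were called the same way in every fit. All 80 values of the 4 named genes kept direction and call. These genes were chosen for the smallest p and no overlap in the same libraries, so this does not bear on the other calls.

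With FPKM divided by the TMM factor, high minus indoor differences became 226 genes at an FPKM of at least 1 and 221 at 100. Both were reversed from -589.75 and -501.75. The difference at 1000 grew from 18.75 to 79.5 genes. At 100 and 1000 the exact permutation test gave its smallest p, 0.0286, and an adjusted p of 0.0857, above the threshold. Differences at 1, of -125.5 genes at 10 and of -0.331 in the median missed the threshold before adjustment too. The scaling itself brings the medians together. Without each library in turn, called genes numbered 4316 to 4793, 2301 to 2495 higher and 1979 to 2349 lower. In all 8 of those fits 2009 of the 2596 higher and 1581 of the 2396 lower genes were called the same way. Differences in genes at 10, 100 and 1000 ran from -2009.5 to -1698.5, -516 to -486 and 15.6 to 20.9, and in the median from -6.39 to -5.61. Each missed the threshold, since 3 against 4 libraries allow no exact permutation p under 0.0571. The difference in genes with a count of 0 ran from -2.25, without high-temperature replicate 4, to 37.4.

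A block for the replicate number gave 4572 calls in edgeR, 2424 higher and 2148 lower. Same-numbered high and indoor libraries had deviations correlated at r of 0.291, 0.0805, 0.0166 and 0.152, so the numbers were not taken as pairs. Of these 4 pairs 2 had an r over 0.1, and 1 of 4 high-temperature and 2 of 4 indoor libraries correlated best with their own number in the other group.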
